A study of Mus musculus with 32 samples.

Results

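Tight junctions seal the space between neighbouring epithelial cells near their apical side. Claudins, small membrane proteins, form the strands of the seal, and which claudins a cell makes sets how tight the strands are and which ions pass. Occludin, encoded by *Ocln*, lies in the same strands, and the ZO scaffolds, among them ZO-1 (*Tjp1*) and ZO-3 (*Tjp3*), tie the strands to actin. Primitive endoderm (PrE) is the epithelium that forms on the surface of the inner cell mass of the blastocyst, facing the cavity, so the make-up of its junctions is part of what sets it apart from the epiblast.

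Transcripts of 9 tight junction genes were followed by RNA-seq: the claudins *Cldn3*, *Cldn4*, *Cldn5*, *Cldn6*, *Cldn7* and *Cldn9*, and *Ocln*, *Tjp1* and *Tjp3*. They were taken by symbol from the 54233 rows of the deposited table, and all 9 were found. The cells were KH2 mouse embryonic stem (mES) cells of strain C57BL/6, and every sample, 0 h included, carried the TRE:GATA6-DSREd2 transgene, a single copy with a doxycycline (Dox) responsive element that drives GATA6 and the red protein DsRed2. The 0 h samples were grown without Dox in 2i medium, which holds the MEK inhibitor PD0325901, a GSK3 inhibitor and LIF. The samples at 2, 4 and 8 h were in serum medium with LIF and 1 µg/mL Dox throughout, and those at 16, 24, 48 and 96 h received Dox for 12 h and then serum medium without it. Each of the 8 time points had 4 replicates, 32 samples in all. All comparisons come from 1 engineered line, nothing says that the replicates were separate cultures, and p-values measure the spread between these samples, which may be technical. Samples in serum medium without Dox were not analysed here, so the change of medium and the induction of *Gata6* cannot be told apart in comparisons with 0 h.

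The samples held 3190108 to 12301732 reads on genes (median 8870663). Values below are normalized counts, which are reads divided by 1 size factor per sample. Replicates 1 and 2 stood apart from replicates 3 and 4 over all genes, and the labels name no batch. Between samples of the same time, the chi-square over its degrees of freedom was 1.57 (median of 16 pairs) within these sets and 10.9 (median of 32 pairs) between them, and no pair agreed within sampling noise (lowest 1.20). The summed level of 7 stem cell markers, *Nanog* and *Pou5f1* among them, was 34903 to 40727 at 0 h and 2636 to 3367 at 96 h, and that of 8 primitive endoderm markers, *Gata4* and *Sox17* among them, was 628 to 898 and 200730 to 277163. All 7 stem cell markers had a mean above 10 at 96 h as well, with *Pou5f1* at 2051. Of 6 fibroblast markers, *Prrx1* and *Twist2* never passed 3 reads in a sample and *Col1a2* never passed 4, while *Thy1* and *Col1a1* reached 22 and 21 reads and *Pdgfrb* had a mean of 48.6 at 0 h and 150 at 8 h. Their summed level was 28.5 to 92.5 at 0 h, 99.998 to 236 at 8 h and 19.1 to 43.9 at 96 h, and their part in the results was not tested.

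Positions are those of the GENCODE M21 annotation on GRCm38. *Cldn4* (chr5:134945119-134946934, minus strand) and *Cldn3* (chr5:134986214-134987472, plus strand) are neighbours, with 39279 bases between them. *Cldn6* (chr17:23679249-23682446, plus strand) and *Cldn9* (chr17:23682584-23684026, minus strand) end 137 bases apart, facing each other. The other members lie alone, *Cldn5* at chr16:18776847-18778262, *Cldn7* at chr11:69964779-69967885, *Ocln* at chr13:100496507-100552718, *Tjp1* at chr7:65296165-65527781 and *Tjp3* at chr10:81273207-81291581. The spans of *Cldn3* and *Tjp3* each overlap a gene on the opposite strand, *Wbscr25* and *Apba3*, by 40 bases, and *Tjp1* contains 3 short annotated genes. The libraries kept strand, but the strand setting of the counting is not given in the sources used here, so reads from such overlaps cannot be assigned with certainty.

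The stretches just before the starts of *Cldn4*, *Cldn6* and *Cldn7* are shown because these are the members that passed the 4-fold threshold, in opposite directions. They are RefSeq sequences on GRCm38.p6, chr5:134946935-134947184 (minus strand), chr17:23679115-23679248 (plus strand) and chr11:69964529-69964778 (plus strand), each read 5′ to 3′ towards the gene, with capitals on the E-box CAGGTG or CACCTG and on the GATA motif GATAA or TTATC.
Cldn4: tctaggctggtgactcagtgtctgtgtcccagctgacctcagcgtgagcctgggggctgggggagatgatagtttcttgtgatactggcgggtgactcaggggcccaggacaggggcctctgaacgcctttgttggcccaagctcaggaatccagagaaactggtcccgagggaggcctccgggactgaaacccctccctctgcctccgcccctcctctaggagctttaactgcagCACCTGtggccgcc
Cldn6: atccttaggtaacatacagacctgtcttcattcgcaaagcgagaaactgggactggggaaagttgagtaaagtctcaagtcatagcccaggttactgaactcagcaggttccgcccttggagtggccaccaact
Cldn7: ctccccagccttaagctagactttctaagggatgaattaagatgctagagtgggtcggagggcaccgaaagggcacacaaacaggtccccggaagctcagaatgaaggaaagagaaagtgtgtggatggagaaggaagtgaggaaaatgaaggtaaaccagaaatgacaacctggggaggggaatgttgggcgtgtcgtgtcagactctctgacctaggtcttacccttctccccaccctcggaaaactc
Capitals appear once, in *Cldn4*, where CACCTG begins 14 bases before the end. The *Cldn6* stretch stops at the annotated gene start, ahead of its RefSeq start, and only the first *Cldn7* start is shown. Over windows of 300 bases, from 250 before to 50 after a RefSeq start, the E-box stood on either strand in 8 of the members' 11 windows and in 20.2% of 32851 windows of this length in the table, and the GATA motif stood in 2 of the 11, in *Tjp1* and *Tjp3*, and in 25.4% of all. These 11 windows belong to 8 genes, some with a second start, and a window of *Cldn9* was not used here. The E-box stood 2 times each in the windows of *Cldn4*, *Cldn6* and the second *Cldn7* start. In the window of the first *Cldn7* start it stood 0 times, and its count was the same for *Cldn4* and *Cldn6*. Letters of a motif describe a sequence only, and no binding was measured in these files.

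The most abundant claudin changed from *Cldn4* to *Cldn6* between 24 and 48 h. At 0 h *Cldn4*, a claudin known as a barrier to sodium, was the most abundant claudin per kb of exon, and *Cldn6*, a claudin known from embryonic epithelia, was low. By 48 h *Cldn6* had risen 22.3-fold in its mean and *Cldn4* had fallen, and the order of the pair was the opposite in all 4 samples at 48 h and at 96 h. *Tjp1* stood above 0 h at every later time point, *Ocln* rose, returned and rose again, *Cldn7* fell and then returned, and *Tjp3* fell early and late. In bulk samples, fewer cells that make a transcript and less transcript per cell cannot be told apart.

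Of the 9 members, 7 passed the filter on low counts (10 or more normalized counts in 4 or more samples) and were tested with limma against all 15227 genes that passed. A call needs a false discovery rate (FDR) below 0.1 and at least a 4-fold change, and the words rose and fell are used of changes that passed the FDR. Over the 7 comparisons with 0 h, the 7 genes gave 49 pairs of gene and time point, of which 3 were called higher and 3 lower, and over all genes tested 4.96% and 3.78% were. The calls were *Cldn6* higher at 8 h (3.4% of all genes were), *Cldn7* lower at 24 h (4.34%), *Cldn6* higher at 48 h (8.48%) and at 96 h (9.28%), and *Cldn4* lower at 48 h (7.09%) and at 96 h (10.3%). With 1 gene of 7 in each, these counts are too small to set against the background shares. Comparisons with 0 h share their 0 h samples, so the calls are not independent of each other.

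Leaving the 4-fold condition out, 3 members were higher and 1 lower at 48 h, where 36.1% and 37.3% of all genes were, and 3 were higher and 3 lower at 96 h, where 38% and 38.5% were. *Cldn6*, *Ocln* and *Tjp1* were the higher ones at both times. *Cldn4* was lower at both, and *Cldn3* and *Tjp3* were lower at 96 h. The median log2 fold change of the 7 members was 1.09 at 48 h and 0.37 at 96 h, against -0.02 and -0.03 over all genes tested.

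Against the preceding time point, 2 of 49 pairs were called higher and 0 lower by limma, and over all genes 1.14% and 0.842% were. Both calls fell in the step from 24 to 48 h, where *Cldn6* and *Cldn7* rose and 2.51% of all genes did. At an unadjusted p below 0.05 and any fold, 14 of 49 pairs were higher and 9 lower, where 19.6% and 19.1% of all genes were, and limma-voom also called 2 and 0. The largest fall between neighbouring time points that passed the FDR was that of *Tjp3* from 48 to 96 h, by 1.71 on the log2 scale.

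**Figure D1:**
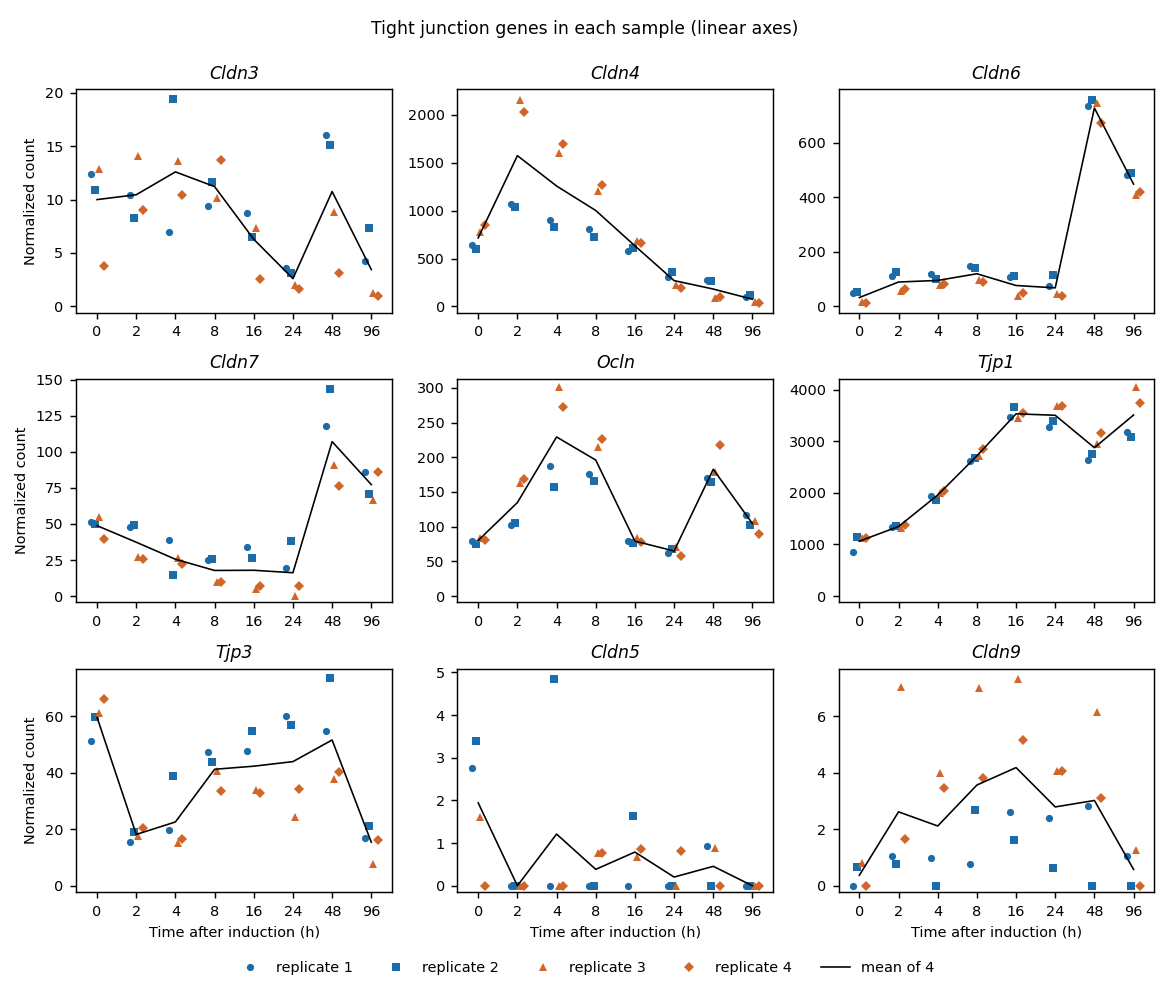
Normalized counts (linear vertical axes, 1 per gene) of the 9 tight junction genes in each of 32 samples against time after induction in hours, with replicates 1 and 2 in blue, replicates 3 and 4 in orange and the mean of 4 as a line. *Cldn6* sits between 672 and 759 at 48 h after staying at or below 149 until 24 h, while *Cldn4* runs from a mean of 1575 at 2 h to 75.1 at 96 h, and *Cldn5* and *Cldn9* stay under 8.

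*Cldn4* was highest at 2 h and lowest at 96 h. Its normalized counts at 0 h were 639, 597, 780 and 846 in replicates 1 to 4 (715 ± 117, SD, n = 4), and at 2 h they were 1069, 1039, 2161 and 2030 (1575 ± 604). Every 2 h sample was above every 0 h sample, and the log2 fold change was 1.07 (SE 0.36, adjusted p = 0.019), below the 4-fold threshold. With each set of 2 replicates averaged to 1 value the adjusted p was 0.22. From this peak the mean went through 1258 at 4 h and 1002 at 8 h to 633 at 16 h and 270 at 24 h, and reached 181 by 48 h and 75.1 by 96 h.

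The ranges of 16 h (583 to 679) and 24 h (189 to 364) lay apart, with a log2 difference of -1.27 (SE 0.36, adjusted p = 0.010). The difference was -0.73 from 24 to 48 h (adjusted p = 0.09) and -1.216 from 48 to 96 h (adjusted p = 0.006). With each set averaged, the 3 steps had adjusted p-values of 0.24, 0.35 and 0.13, so none then passed the FDR, and the step from 24 to 48 h also missed it without replicate 3 (0.31), without replicate 4 (0.19), without the filter (0.16) and with only the groups compared (0.16). At 48 h the samples held 277, 268, 86.2 and 94.9, a log2 fold change of -2.17 from 0 h (SE 0.36, adjusted p = 4.1e-06), and at 96 h they held 102, 116, 43.9 and 38.8, one of -3.38 (SE 0.36, adjusted p = 9.3e-10). All 8 late samples were below all 0 h samples. The 2 sets of replicates were apart in *Cldn4* at all 8 time points, with replicates 3 and 4 higher up to 16 h and lower from 24 h. Taken alone, replicates 1 and 2 gave a log2 fold change of -1.18 at 48 h and replicates 3 and 4 gave -3.15, so the 4-fold call at 48 h rests on replicates 3 and 4. It was also lost with replicate 3 (-1.83) or replicate 4 (-1.84) left out at every time point. At 96 h both sets passed 4-fold, with -2.50 and -4.27.

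Trophectoderm is another epithelium of the blastocyst that makes claudins, and its markers also moved. The summed level of 7 markers was 91.9 to 122 at 0 h and 369 to 836 at 2 h, with 363 to 563 at 48 h and 263 to 373 by 96 h. Most of it was *Plet1*, with a mean of 61.4 at 0 h and 513 at 2 h. Of the defining factors, *Elf5* had a mean of 0 at 0 h and 0.448 at 2 h, and *Cdx2* had 26.2 and 43.7. The list had 3 of 7 markers at a mean of 10 or more at 0 h and 4 of 7 at 2 h, and its part in the early rise of *Cldn4* was not tested.

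*Cldn6* changed in 2 steps. The 0 h samples held 49.7, 51.6, 17.7 and 11.3 normalized counts (32.6 ± 21.0, SD, n = 4), and the 2 h samples held 111, 125, 56.3 and 65.7 (89.6 ± 33.8), with no overlap and a log2 fold change of 1.61 (SE 0.38, adjusted p = 0.0011). The means then stayed between 68.2 and 120 from 4 to 24 h, with overlapping ranges between neighbours in order of level. The 8 h value, 2.08 on the log2 scale (SE 0.38, adjusted p = 4.9e-05), lay just past 4-fold. It was 1.51 in replicates 1 and 2 alone, 1.97 without replicate 3, 1.80 without replicate 4 and 1.95 in limma-voom, so that call was lost under these settings.

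The second step was the larger. From 74.5, 115, 44.7 and 38.3 at 24 h, *Cldn6* reached 736, 759, 747 and 672 at 48 h (728 ± 38.9), and the 96 h samples held 481, 488, 408 and 419 (449 ± 41.3). The 48 h level exceeded that of 24 h by 3.53 on the log2 scale (SE 0.38, adjusted p = 7e-09), and the samples of the 2 time points lay far apart. Against 0 h it was 4.70 at 48 h (SE 0.38, adjusted p = 3.5e-12) and 4.00 at 96 h (adjusted p = 8.9e-11).

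Replicates 3 and 4 had less *Cldn6* than replicates 1 and 2 at all 8 time points, and the sets were apart at 7 of them. The difference was -1.76 on the log2 scale at 0 h and -0.08 at 48 h. Either set alone passed 4-fold at 48 h, with 3.86 in replicates 1 and 2 and 5.54 in replicates 3 and 4. The 96 h ranges lay wholly below the 48 h ranges, although the log2 difference of -0.70 did not pass the FDR (adjusted p = 0.13).

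*Cldn9*, the gene that faces *Cldn6*, was low. It had at most 11 reads in any sample and 0 in 6 of the 32, and it failed the filter. At 48 h, when *Cldn6* had 403 to 849 reads, *Cldn9* had 0 to 7. Its mean was lowest at 0 h, 0.371 normalized counts with 0 or 1 read in a sample, and highest at 16 h, 4.18 with 2 to 11 reads. The 16 h samples (1.63 to 7.32) all lay above the 0 h samples (0 to 0.806), and this difference was not tested.

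*Cldn7*, a claudin of simple epithelia that binds EpCAM, dipped and came back. Its 0 h samples held 51.1, 49.6, 54.8 and 39.7 normalized counts (48.8 ± 6.46, SD, n = 4), and the means were 37.3 at 2 h, then 25.5 at 4 h and 17.8 by 8 h. At 24 h the samples held 19.2, 38.2, 0 and 7.34 (16.2 ± 16.7), a log2 fold change of -2.46 from 0 h (SE 0.66, adjusted p = 0.0022). All 4 lay below all 0 h samples, but their own spread was as large as their mean. The sample at 0 was the shallowest of that time point, with 3844937 reads on genes, where 3 reads, the upper limit for a count of 0, would be 6.09 normalized counts. With replicate 3 left out at every time point the log2 value was -1.34, and in replicates 1 and 2 alone it was -0.87 against -4.04 in replicates 3 and 4, so the 4-fold call at 24 h rests on the second set and most of all on that sample.

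At 48 h *Cldn7* held 118, 143, 90.6 and 76.4 (107 ± 29.6), above every 24 h sample. The rise from 24 h was 3.54 on the log2 scale (SE 0.66, adjusted p = 4.7e-05), with 2.22 in replicates 1 and 2 and 4.87 in replicates 3 and 4. Against 0 h the 48 h log2 difference was 1.09 (SE 0.66, adjusted p = 0.14) and the 96 h one was 0.65 (adjusted p = 0.38), though both sets of 4 samples lay above the 0 h samples. *Cldn6* and *Cldn7* thus had their highest means at the same 2 time points.

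*Cldn3* and *Cldn5* were low. *Cldn3*, a claudin that adds to barrier function, had 1 to 18 reads in every sample, with a mean of 9.99 at 0 h and 12.6 at 4 h, a low of 2.60 at 24 h, then 10.7 at 48 h and 3.45 by 96 h. The 24 h value was lower than 0 h by 1.53 on the log2 scale (SE 0.45, adjusted p = 0.0049) with ranges apart, 1.63 to 3.60 against 3.78 to 12.9. The 24 h samples held 1 to 5 reads and the lowest 0 h sample held 2, so the gap between the ranges rests on a few reads. The 96 h value was lower by 1.45 (adjusted p = 0.0054) with ranges that overlapped and an adjusted p of 0.11 without replicate 3, and the rise from 24 to 48 h was 1.54 (adjusted p = 0.0052). The 48 h value differed from 0 h by 0.01 (SE 0.45, adjusted p = 0.98). *Cldn5*, the claudin of endothelium, had at most 5 reads in a sample, was at 0 in 20 of 32 and failed the filter, so it was not tested.

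**Figure D2:**
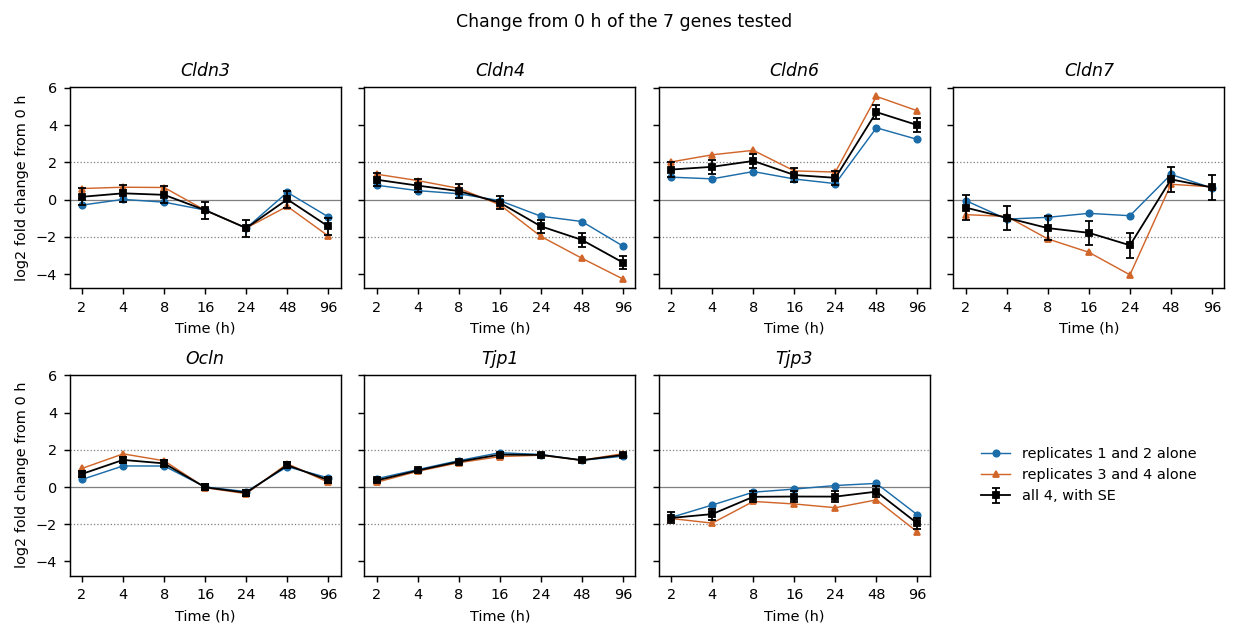
Log2 fold change from 0 h, on log2(normalized count + 1), of the 7 genes tested at each later time point in hours, from all 4 replicates with the limma standard error (black) and from each set of 2 replicates (blue, orange), with dotted lines at 4-fold. *Cldn6* stands at 4.70 at 48 h and *Cldn4* at -3.38 at 96 h, *Tjp1* lies within 1.36 to 1.74 from 8 h on, and the sets part most in *Cldn7* at 24 h.

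Levels of claudins were compared per kb of exon. The table has 33 claudin genes with an annotated exon model, and 9 of them reached 10 normalized counts in at least 1 sample. Their sum over all 33 was 515 ± 43.6 (SD, n = 4) normalized counts per kb at 0 h and 1041 ± 296 at 2 h, then 293 ± 76.5 at 24 h, rising to 687 ± 94.1 at 48 h and 488 ± 54.1 by 96 h. It was highest at 2 h and lowest at 24 h, just before the rise of *Cldn6*.

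*Cldn4* made up 76.2% ± 6.17 of this sum at 0 h and 50.5% ± 2.61 at 24 h, but 13.9% ± 6.57 at 48 h and 8.19% ± 3.55 by 96 h. *Cldn6* made up 3.85% ± 2.69 at 0 h and 12.9% ± 3.27 at 24 h, but 62.2% ± 6.55 at 48 h and 53.5% ± 1.36 by 96 h. At 48 h the lowest *Cldn6* share in a sample was 56.2% and the highest *Cldn4* share was 20.1%. *Cldn7* held 4.91% ± 0.847 at 0 h and 7.88% ± 1.19 at 48 h. Most of the remainder was *Cldn12*, which is no member, at 59.9 per kb at 0 h, then 92.9 at 48 h and 138 by 96 h.

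The log2 ratio of *Cldn6* to *Cldn4* per kb put the exchange between 24 and 48 h. At 24 h it was -1.95, -1.58, -2.24 and -2.23 in replicates 1 to 4, and at 48 h it was 1.49, 1.58, 3.19 and 2.90. It was negative in all samples up to 24 h and positive in all samples at 48 and 96 h. The mean ratio had already moved from -4.65 at 0 h to -2.98 at 8 h.

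**Figure D3:**
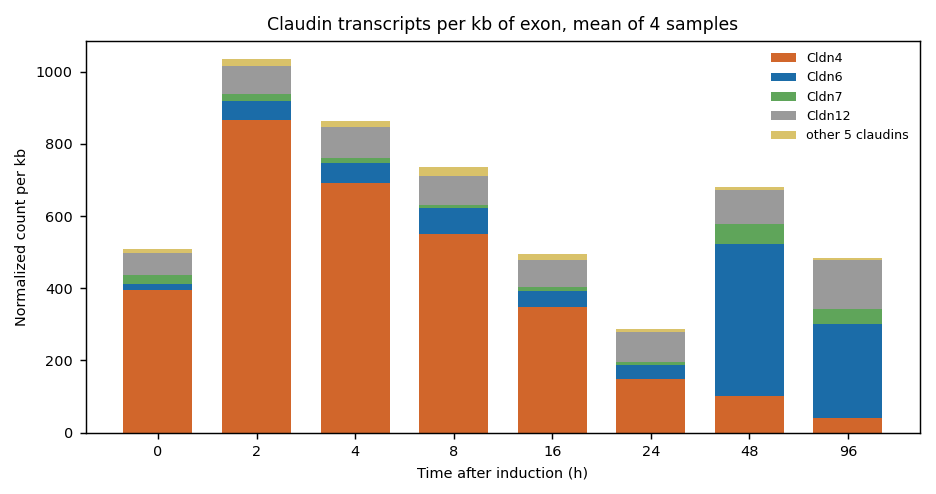
Mean normalized count per kb of exon (4 samples, linear axis from 0) of the 9 claudins that reached 10 normalized counts in a sample, stacked by gene against time after induction in hours. *Cldn4* goes from 394 per kb at 0 h and 867 at 2 h to 41.3 at 96 h, and *Cldn6* from 39.6 at 24 h to 423 at 48 h.

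*Ocln* rose in 2 waves. Its samples held 80.1, 75.4, 83.8 and 81.2 normalized counts at 0 h (80.1 ± 3.52, SD, n = 4), 187, 157, 301 and 272 at 4 h (229 ± 68.1), again 80.0, 75.8, 83.2 and 77.7 at 16 h (79.2 ± 3.21) and then 170, 164, 179 and 218 at 48 h (183 ± 24.2). All 4 h and all 48 h samples lay above all samples of 0 h and 16 h, and the 0 h and 16 h ranges overlapped. Relative to 0 h, *Ocln* stood at a log2 difference of 1.46 at 4 h (SE 0.17, adjusted p = 3.5e-08), -0.02 at 16 h (adjusted p = 0.94) and 1.17 at 48 h (adjusted p = 4.1e-07). The fall from 8 to 16 h was by 1.29 (adjusted p = 1.9e-06), and the rise from 24 to 48 h was 1.47 (adjusted p = 2.1e-08). At 96 h *Ocln* was back to 104 ± 11.2, a log2 difference of 0.37 from 0 h (adjusted p = 0.048, and 0.22 with each set averaged), and it never passed 4-fold. That difference also missed the FDR without replicate 1, where the adjusted p was 0.17, and with total-read scaling, where it was 0.56.

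*Tjp1*, the ZO-1 scaffold, was the member with the most reads, and it rose over the first 16 h. Its means were 1064 ± 136 at 0 h and 1348 ± 25.7 at 2 h, then 1958 ± 77.8 at 4 h and 2717 ± 93.2 at 8 h, and 3533 ± 96.5 by 16 h (SD, n = 4), with no overlap between the ranges of these neighbouring times. The 0 h samples held 860, 1145, 1126 and 1124, and the 16 h samples held 3472, 3659, 3444 and 3555. Every time point passed the FDR against 0 h, with log2 fold changes from 0.35 at 2 h (SE 0.08, adjusted p = 0.00081) to 1.74 at 16 h (adjusted p = 3e-17), below 4-fold throughout.

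After 16 h the changes of *Tjp1* were smaller. The 24 h mean was 3505 ± 207, and the fall to 2875 ± 236 at 48 h (log2 -0.29, adjusted p = 0.0035) was regained at 96 h, with 3510 ± 464. The 2 sets gave close fold changes from 0 h at 48 h, both 1.44. Per kb, *Tjp1* stood at 136 at 0 h and 449 at 96 h, above every claudin at 96 h.

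*Tjp3*, the ZO-3 scaffold known from epithelia, went the other way at the start and the end. Its samples held 51.1, 59.8, 61.3 and 66.1 at 0 h (59.6 ± 6.27, SD, n = 4), 15.6, 18.9, 17.6 and 20.5 at 2 h (18.1 ± 2.08) and 17.0, 21.0, 7.53 and 16.1 at 96 h (15.4 ± 5.67). The 2 h and 96 h samples all lay below the 0 h samples. The log2 fold change was -1.66 at 2 h (SE 0.29, adjusted p = 3.8e-05) and -1.96 at 96 h (SE 0.29, adjusted p = 7e-07), the latter just short of 4-fold and past it without replicate 1 (-2.10) or replicate 2 (-2.13).

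Between these times *Tjp3* came back, with means of 22.6 at 4 h, then 41.2 at 8 h and 43.9 at 24 h, and 51.6 by 48 h. The step from 4 to 8 h was 0.93 on the log2 scale (SE 0.29, adjusted p = 0.034), with an adjusted p of 0.35 with each set averaged and 0.19, 0.12 and 0.15 without replicate 1, 3 or 4. The 48 h value differed from 0 h by -0.25 (SE 0.29, adjusted p = 0.46). From 4 h to 96 h replicates 3 and 4 stayed below replicates 1 and 2, and at 24 h the sets gave opposite signs against 0 h, 0.08 and -1.11. At 96 h replicates 1 and 2 gave -1.50 against 0 h and replicates 3 and 4 gave -2.42. *Tjp1* and *Tjp3*, which belong to 1 scaffold family, thus moved in opposite directions at 2 h and at 96 h, each past the FDR.

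The comparison with 2 h sets samples in serum medium beside each other, but Dox and the time since the change of medium differ. The 2 h samples had left 2i medium 2 h before and were still in Dox. Those at 48 and 96 h had Dox for 12 h and then none. Effects of Dox and of the time in serum medium cannot be told apart here. Of the 7 members, *Cldn6* was called higher and *Cldn4* lower at 48 h, where 8.5% and 7.65% of all genes were, and the same pair was called at 96 h, where 9% and 10.6% were. The log2 fold change of *Cldn4* from 2 h was -3.23 at 48 h (SE 0.36, adjusted p = 2.9e-09) and -4.45 at 96 h (adjusted p = 2.4e-12), larger than from 0 h because the 2 h level was higher. In replicates 1 and 2 alone the 48 h value was -1.95, just under 4-fold. That of *Cldn6* was 3.09 at 48 h (SE 0.38, adjusted p = 2.2e-08) and 2.39 at 96 h (adjusted p = 1.8e-06). *Tjp1* was 1.09 and 1.37 higher on the log2 scale (adjusted p = 4.1e-13 and 1.2e-15). *Tjp3* was 1.41 higher at 48 h (adjusted p = 9.5e-05) and differed from 2 h by -0.30 at 96 h (adjusted p = 0.37).

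The wider junction was read through 69 other genes, of which 67 had a row and 47 passed the filter. At 48 h, 8 of the 47 were called higher and 3 lower, and at 96 h 11 and 5, beside the background shares of 8.48% and 7.09%, and 9.28% and 10.3%, given above. Their median log2 fold change was 0.64 at 48 h and 0.68 at 96 h. Among the subgroups, 4 of 11 scaffolds were called higher at 48 h and 6 at 96 h, and 2 of 5 tricellular and MARVEL proteins were called higher at both times. Of the 4 other claudins tested, *Cldn18* was called lower at 96 h, and at earlier times *Cldn10* was called higher at 8, 16 and 24 h and *Cldn15* at 2 h. *Cldn10*, named with *Cldn15* after their values were seen, held 0 to 0.806 normalized counts at 0 h and 20.5 to 31.9 at 8 h, and *Cldn15* held 1.38 to 4.84 at 0 h and 14.8 to 27.0 at 2 h.

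Among the genes called at 48 or 96 h, and on their changes at these times, rises were largest in *Amot*, *Patj*, *Esam*, *Ildr2* and *Cgnl1*. *Amot*, angiomotin, a scaffold that binds YAP, held 7.55 to 11.04 normalized counts at 0 h and 3289 to 4261 at 48 h, with a log2 fold change of 8.50 (SE 0.12, adjusted p = 3.3e-30). *Patj*, of the Crumbs polarity complex, held 26.2 to 66.1 at 0 h and 969 to 1076 at 96 h (log2 4.62, adjusted p = 2e-15). *Cgnl1*, paracingulin, peaked at 24 h with a mean of 1262 and stood at 640 to 687 at 48 h against 39.5 to 59.1 at 0 h (log2 3.74, adjusted p = 1.8e-18). *Esam*, an adhesion molecule of the immunoglobulin family, held 3.78 to 11.5 at 0 h and 121 to 168 at 96 h (log2 4.26, adjusted p = 1.1e-09). *Ildr2* had at most 2 reads in a 0 h sample, and its 96 h mean of 38.8 was at least 10.9-fold higher than the floor of 3 reads per library there.

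In the same set, falls were largest in *Ildr1*, *Jam2*, *Spint1*, *Magi1* and *Cldn18*, each at 96 h. Outside these times, 7 of the 47 were called lower at 24 h against 0 h, *Ildr1*, *Jam2* and *Spint1* among them. The others were *Marveld3*, *Pard3b*, *Crb3* (log2 -2.20) and *St14* (log2 -2.09), named after their values were seen. At 16 h *Marveld3* was called lower too (log2 -2.26). *Marveld3* held 12.2 to 22.7 normalized counts at 0 h and was at 0 in each 24 h sample, and *Pard3b* had a mean of 8.97 at 0 h and 1.41 at 24 h. *Ildr1*, a protein of tricellular contacts, went from 780 to 971 at 0 h to 5.02 to 10.5 at 96 h (log2 -6.60, SE 0.15, adjusted p = 1.9e-25), so *Ildr1* and *Ildr2* moved in opposite directions. *Jam2*, a junctional adhesion molecule, went from 2638 to 6146 down to 40.2 to 65.8 (log2 -6.15, adjusted p = 4.2e-18). Its 2 h mean of 6255 was above its 0 h mean of 4338, and replicates 3 and 4 were above replicates 1 and 2 up to 24 h, as they were in *Cldn4* up to 16 h. *Spint1*, an inhibitor of membrane serine proteases, fell by 3.23 (adjusted p = 2.7e-13), and *Magi1*, a scaffold, fell by 2.21 (adjusted p = 5.6e-18). *Cldn18* had at most 8 reads at 0 h and 0 in every 96 h sample, too few for a fold.

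**Figure D4:**
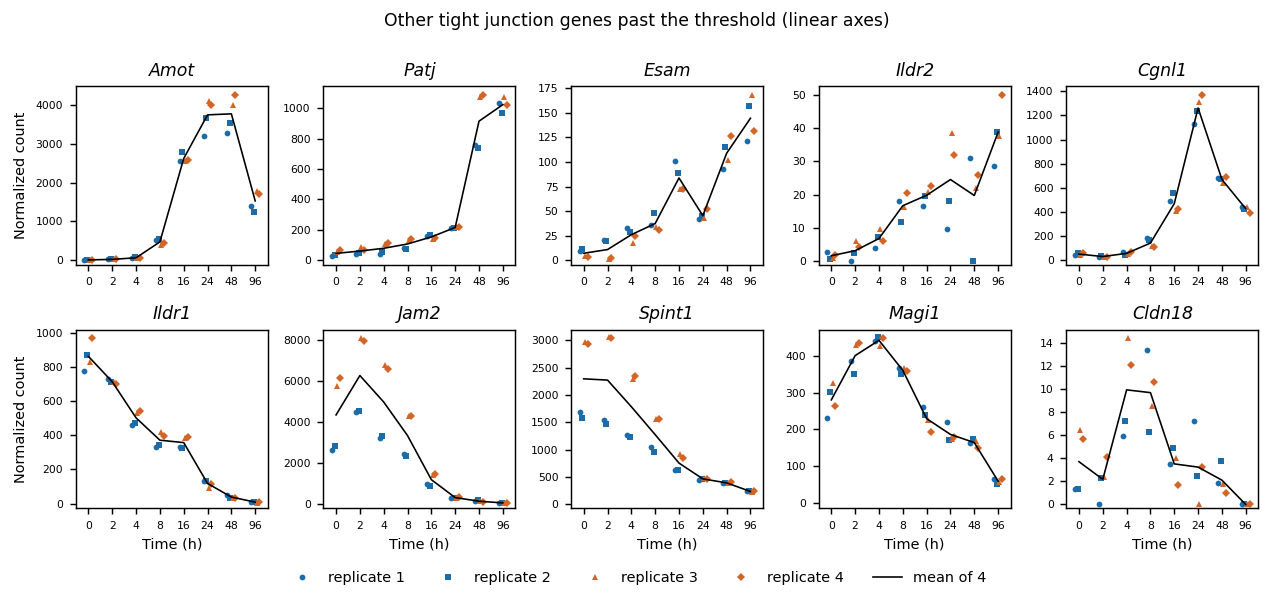
Normalized counts (linear vertical axes, 1 per gene) in each of 32 samples against time in hours for the 5 largest rises (upper row) and 5 largest falls (lower row) among the other tight junction genes called at 48 or 96 h, with replicates 1 and 2 in blue, replicates 3 and 4 in orange and the mean of 4 as a line. *Amot* goes from a mean of 9.45 at 0 h to 3770 at 48 h, *Patj* reaches 1026 at 96 h, and *Ildr1* falls from 863 to 8.16.

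The time courses of the members had little in common. Over the 8 time point means on the log2(normalized count + 1) scale, Pearson's r between pairs of members ran from -0.68 for *Cldn4* with *Cldn6* to 0.72 for *Cldn3* with *Cldn4*, and *Cldn6* with *Cldn7* had 0.62. These are descriptions over 8 points that share a time course. By the same measure the genes most like *Cldn4* were *Xk* (r = 0.998) and *Efs* (0.995), those most like *Cldn6* were *Wnt9a* (0.982) and *Trip6* (0.979), and those most like *Cldn7* were *Renbp* (0.972) and *Nmb* (0.967). *Tjp1* was closest to *Dlk1* (0.989) and *Gm19510* (0.986), *Tjp3* to *Rasal1* (0.979) and *Plpp3* (0.940), and *Cldn3* to *Dtx3* (0.958) and *Hebp2* (0.942). *Ocln*, with its 2 waves, had the lowest best match, *Plin2* (0.897), followed by *Zhx1* (0.870). These matches were picked from 8243 genes. Over the 32 samples, which hold the difference between the sets too, their r ran from 0.640 for *Ocln* with *Zhx1* to 0.968 for *Cldn4* with *Efs*. It was 0.910 for *Cldn4* with *Xk* and 0.825 for *Cldn6* with *Wnt9a*, but 0.653 for *Cldn7* with *Renbp* and 0.696 for *Tjp3* with *Rasal1*.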

How the data were processed

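RNA-seq of 32 samples (8 time points, 4 replicates each) was analysed, with groups taken from the sample titles. The members and gene lists were chosen with earlier results of these data known. Per the submitters' notes, trimming used cutadapt 2.7, alignment to GRCm38.p6 used HISAT2 2.1.0 and counting used featureCounts (Subread 1.6.4). What the authors deposited was 1 table on a log2 scale, variance-stabilized with DESeq2. The value 1.58 stands for 0 reads in every column and fixes the transformation. Inverting it gave normalized counts, and dividing by each sample's smallest positive value gave whole reads for 100% of the values, within 1e-06 of a whole number. Limits of 3 reads cover counting error only.

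Genes with 10 or more normalized counts in 4 or more samples were compared by limma 3.58.1 (R 4.3.3) on a log2 scale with pseudocount 1 (lmFit, contrasts and eBayes with a trend, all 32 samples, no covariate). Fold changes on this scale understate those of low genes. Adjusted p-values are Benjamini-Hochberg values over all genes tested in a comparison. The threshold was FDR below 0.1 and a change of 2 or more on the log2 scale. Tested on simulated data for 48 h against 0 h (14550 genes), the procedure called 200 of 200 genes changed by 3 on the log2 scale and 0 unchanged genes. The simulated counts had the same dispersion in all genes and no difference between sets of replicates, and changed genes had means of at least 50. The simulation checks the running of the procedure and does not measure its error rates for low genes or with the sets apart. Genes named are the 9 members, the 5 largest rises and 5 largest falls among genes of the other tight junction list called at 48 or 96 h against 0 h, the 2 genes with the highest r to each tested member over the time point means, and cell type markers beside a result. Of 69 other tight junction genes, 2 had no row. Lengths are unions of exons. Alternatives were the pseudocount, the filter, the scaling, blocks, sets of replicates, each replicate left out, the deposited values themselves, limma-voom and other thresholds.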

Additional observations from a re-analysis of the deposited data

Results flagged for a closer look

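Dixon's test took the gap of a sample to its nearest other as a share of the range. In 72 groups of 4 samples (9 genes, 8 time points), 4 held a sample past its 95% critical value. Chance gives about 1 in 20 groups for continuous, normally distributed values, and this rate does not hold for groups of a few reads. *Tjp1* in replicate 1 at 0 h was at 860 normalized counts, where the others held 1124 to 1145. *Cldn9* in replicate 3 at 2 h was at 7.03 (6 reads), where the others held 0.755 to 1.64. *Cldn5* in replicate 2 at 4 h was at 4.85 (2 reads) and in replicate 4 at 24 h at 0.815 (1 read), where the others held 0. With the others at 0, the gap equals the range at any positive count, so both *Cldn5* flags were fixed in advance.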

How the results depend on the processing

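The 65 fold changes followed here (those past the FDR, and all at 48 and 96 h against 0 h) were recomputed under 18 alternatives. The 2 rises from 24 to 48 h and the 96 h calls of *Cldn4* and *Cldn6* kept their side of the threshold under every alternative that could test the gene, and *Cldn3*, *Cldn7* and *Tjp3* were not tested at a mean of at least 50. Pseudocount 5 and the deposited values ended the calls of *Cldn6* at 8 h (1.90 and 1.88) and *Cldn7* at 24 h (-1.75 and -1.93). With a replicate left out, *Cldn7* at 16 h passed 4-fold without replicate 1 (-2.19) or 2 (-2.08), and *Cldn6* at 4 h (2.03) and *Cldn3* at 96 h against 2 h (-2.08) did without replicate 2. Of the 61 that passed the FDR at any fold, 42 did so under every alternative. Averaging each set of 2 replicates to 1 value lost 16, leaving out a replicate lost 1 to 7, and each other alternative lost at most 4. The count called higher against 0 h (3) was 5 in replicates 3 and 4 alone and 16 at a log2 fold change of at least 1. The count called lower (3) was 1 in replicates 1 and 2 alone, 6 in replicates 3 and 4 alone, 11 at a log2 fold change of at least 1, and 1 to 5 with a replicate left out. Against the preceding time point, the higher count (2) was 1 at a mean of at least 50 and 6 at the lower fold, and the lower count (0) was 6 at the lower fold. The sign of *Cldn3* at 48 h against 0 h turned to -0.0083 with TMM factors, -0.10 with total reads, -0.36 in replicates 3 and 4, -0.17 in limma-voom, and -0.13 to -0.10 without replicate 1 or 2. In replicates 1 and 2 alone, *Tjp3* at 48 h against 0 h was 0.19 and *Ocln* at 96 h against 2 h was 0.0849. Apart from the set splits and the lower fold, the cause was not tested. Total-read scaling moved the median of all genes at 48 h from -0.02 to -0.16 (1175 higher and 1177 lower, against 1291 and 1079). Over all genes at 48 h, pseudocount 5 called 951 and 720, the deposited values 1036 and 782, and a mean of at least 50 called 692 and 467.

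Deviations from the time point means correlated equally in same-numbered samples and in differently numbered samples of a set (mean r 0.196 in both), and 15 of 32 samples correlated best with their own number. Under a replicate block, the counts against 0 h were 3 higher and 3 lower and against the preceding time point 2 and 0, so the block changed no call of a member. Depth limits *Cldn3*, *Cldn5* and *Cldn9* most.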
